A study of Mus musculus with 6 samples.

Results

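Transforming growth factor beta (TGF-beta) signalling was read through 10 mouse genes: the ligands Tgfb1, Tgfb2 and Tgfb3, the receptors Tgfbr1, Tgfbr2 and Tgfbr3, and the latent TGF-beta binding proteins Ltbp1, Ltbp2, Ltbp3 and Ltbp4. They were chosen by name. The array held 24 probe sets annotated to 1 of these genes alone, out of 45101 probe sets in all, and the 10 genes were among 18193 with a probe set of their own.

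RNA was measured on 1 oligonucleotide array per sample, in 4 groups. One array held FL-Y activated by an anti-lymphotoxin beta receptor antibody, and 1 array held FL-Y without it. FL-Y is a mouse cell line with features of follicular dendritic cells (FDC) that was transformed with SV40. The other groups were primary FDC grown in culture (2 arrays) and dendritic cells derived from bone marrow (BMDC, 2 arrays). The sources used here do not give mouse strain, age, culture time or antibody dose. The label of 1 BMDC sample has no number, so that sample was called array 1 by its order in the series. Whether the 2 arrays of a cell type stand for 2 cultures or animals is not stated. The p-values therefore cover only the spread between samples, which may be technical. Each FL-Y state has 1 array, so its differences have no replicate check and carry no p-value.

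TGF-beta is made as a precursor whose cut propeptide stays wrapped around the mature dimer and keeps it inactive. Latent TGF-beta binding proteins are joined to this propeptide and anchor it in the matrix, from which integrins and proteases can release the ligand. The freed dimer binds the type II receptor, which phosphorylates the type I receptor, and this in turn phosphorylates SMAD2 and SMAD3; betaglycan, the type III receptor, presents ligand and matters most for TGF-beta 2. In lymphoid tissue TGF-beta is known both as a restraint on lymphocytes and myeloid cells and as an inducer of matrix genes in stromal cells.

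A value is a deposited signal in arbitrary units, and the mean of every array, after 2% was trimmed at each end, was 500. As a mark of background, each array's 20th percentile is used (8.7 to 15.4 units). Differences are on the log2(signal + 14.2) scale, which understates the change of dim genes. FDC and BMDC were compared with limma over 27022 probe sets, with Benjamini-Hochberg adjustment over all of them and a threshold of 0.05. Where a gene had several probe sets, the brightest by mean log2 value, all 6 arrays counted, stands for it. Values of the others are given for part of the cases in which they differ. Median signals were 47.9 on the activated FL-Y array, 61.1 on the FL-Y array, and 76.4 to 84.4 on the FDC and BMDC arrays. The ratio of labelling to hybridisation controls was 0.134 and 0.366 on FDC arrays 1 and 2 and 0.115 and 0.559 on BMDC arrays 1 and 2, so differences are also given within the first and within the second arrays. It was 0.0660 on the activated FL-Y array and 0.0596 on the FL-Y array, below all FDC and BMDC arrays. The 3′ to 5′ signal ratio of Gapdh, a sign of RNA integrity, was 0.808 on the activated FL-Y array and 0.875 to 0.904 on the other 5. The part of these differences between arrays in the FL-Y results was not tested.

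Cell type markers were read on the same arrays. Of 10 fibroblast and mural cell markers tested, 6 were higher and 0 lower in FDC, with summed signals of 103835 and 53945 on the FDC arrays against 2950 and 1469 on the BMDC arrays. Of 6 markers shared by leukocytes, 6 were lower in FDC, with sums of 2467 and 2093 on the FDC arrays against 103941 and 92591 on the BMDC arrays. Of 12 FDC markers tested, Il6 was higher in FDC, while Mfge8, Clu and Fcgr2b were lower. Vcam1 (4.27), Tnfsf13b (2.96) and Cxcl13 (2.48) had both FDC arrays above both BMDC arrays. These log2 differences were not called (limma adjusted p = 0.0566, 0.107 and 0.331). The other uncalled FDC markers overlapped between the groups, and the list median was 0.15, beside -0.03 for all genes tested. The complement receptor Cr2, a defining FDC marker in tissue, had 119.5 and 4.1 units on the FDC arrays against 59.1 and 71.1 units on the BMDC arrays, with overlapping groups. Of 7 mast cell markers 4 were higher in FDC, with sums of 7212 and 11633 on the FDC arrays against 3989 and 928 on the BMDC arrays, and of 6 T cell markers 3 were higher, with sums of 2149 and 1284 against 262 and 115. The part of any of these cells in the results below was not tested. Fewer cells of a type and less RNA per cell cannot be told apart in such bulk samples.

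Cultured FDC stood apart from BMDC in 3 of the 10 genes: the ligand Tgfb3, the co-receptor Tgfbr3 and the latent binder Ltbp2 were higher in FDC with limma, and 0 were lower. Over all 12750 genes tested, 5.87% were called higher and 5.4% lower, 11.3% in all. The median difference was 1.62 for the 10 genes, all of which passed the filter on dim probe sets, and -0.03 for all genes tested. Both FDC arrays lay above both BMDC arrays for 6 of the 10 genes and below them for 2, beside 28.8% and 30.4% of all genes tested.

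**Figure D1:**
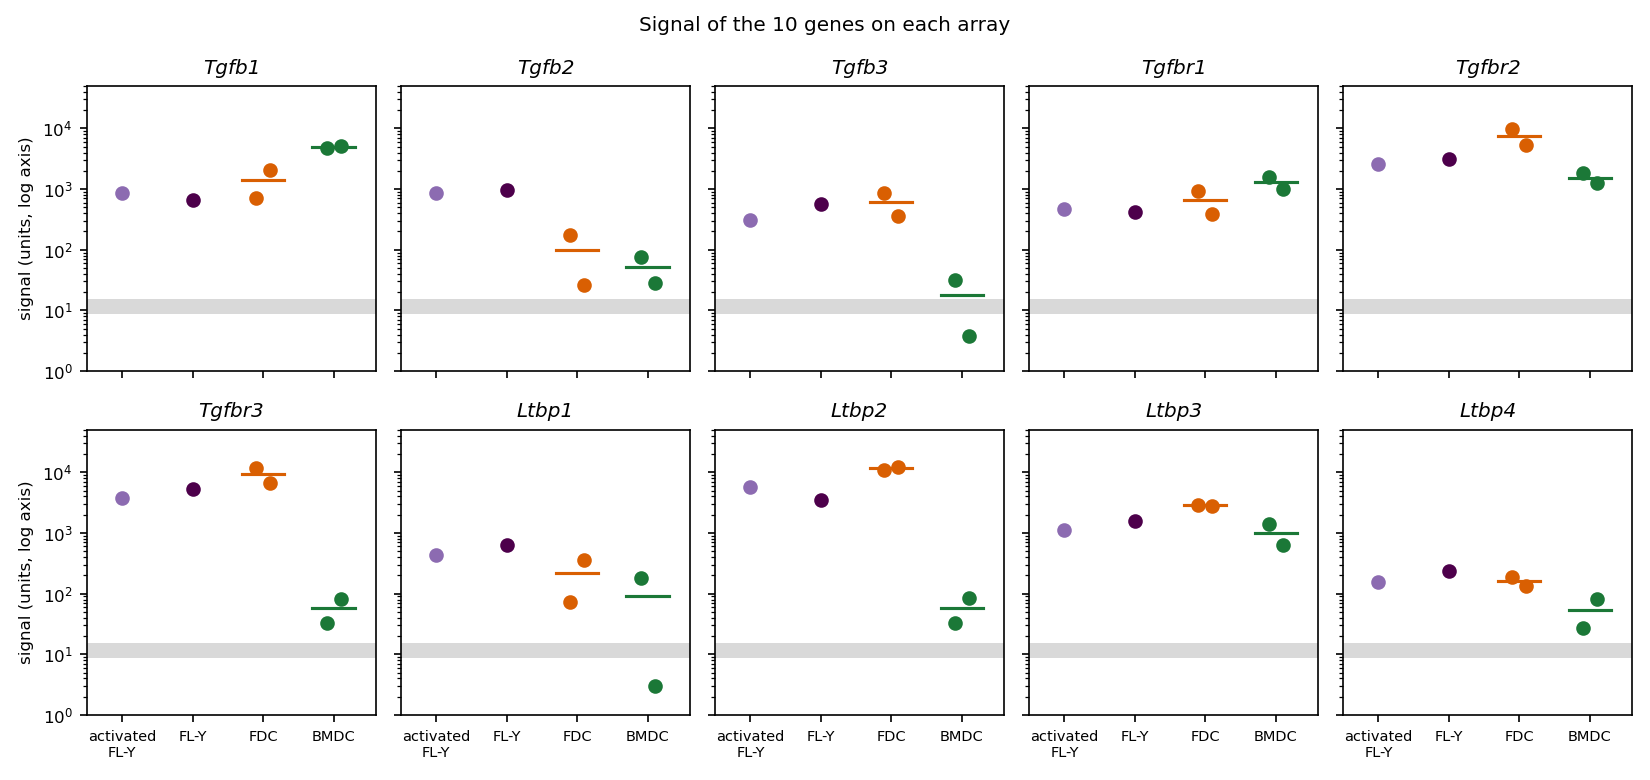
Signal of each gene on each array (1 point per array, log axis, arbitrary units), with bars at the mean of the 2 FDC and the 2 BMDC arrays and a grey band at the 20th percentiles of the arrays. Tgfb3, Tgfbr3 and Ltbp2 are at 362.7 units or more on the FDC arrays and at 84.8 units or less on the BMDC arrays, while Tgfb1 is highest on the BMDC arrays and Tgfb2 on both FL-Y arrays.

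The 3 ligands had 3 different patterns. Tgfb3, the isoform known for its part in palate fusion and in mesenchymal tissues, had 307.0 units in activated FL-Y, 575.3 in FL-Y, 854.0 and 362.7 in FDC, and 31.8 and 3.8 in BMDC. The FL-Y array lay between the 2 FDC arrays, and both BMDC arrays lay far below all others. FDC averaged 608 ± 347 units and BMDC 17.8 ± 19.8 units (SD, n = 2 each), a log2 difference of 4.31 ± 0.66 (SE; limma adjusted p = 0.0198), with 4.24 within the first and 4.39 within the second arrays. Because BMDC array 2 was under its 20th percentile, the size moves with the offset, 3.16 with a larger one and 5.66 with none, and with no offset the call was lost (adjusted p = 0.0711). It was also lost without BMDC array 2 (3.64, adjusted p = 0.0580) or without FDC array 1 (3.71, adjusted p = 0.0548).

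Tgfb1, the isoform of most blood cells and of platelets, ran the other way. It had 863.1 units in activated FL-Y, 662.9 in FL-Y, 707.2 and 2099.5 in FDC, and 4772.5 and 5151.5 in BMDC. Both BMDC arrays were above every other array, while FDC array 1 stood close to FL-Y and FDC array 2 above both. The log2 difference between FDC and BMDC was -2.01 ± 0.60 (SE), which did not pass the threshold (limma adjusted p = 0.116), and it was -2.73 within the first and -1.29 within the second arrays. The second probe set of Tgfb1 had 36.5 and 44.3 units in FDC against 137.8 and 357.0 in BMDC (-2.12 ± 0.54, adjusted p = 0.0796). Without FDC array 2 the first probe set was called lower (-2.79, adjusted p = 0.0393), and so was the mean of both (-2.07, adjusted p = 0.0440). Of 7 megakaryocyte and platelet markers 6 were lower in FDC, with sums of 1117 and 1213 on the FDC arrays against 79394 and 45192 on the BMDC arrays. In that list Gp9 and Vwf were under the 20th percentile on both FDC arrays. The part of these cells, and of the leukocyte markers above, in the Tgfb1 signal was not tested.

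Tgfb2, the isoform with the greatest need for betaglycan, was brightest in FL-Y. Its brightest probe set had 876.9 units in activated FL-Y, 980.5 in FL-Y, 173.1 and 26.1 in FDC, and 74.7 and 28.8 in BMDC. FDC and BMDC overlapped (0.49 ± 0.83 (SE), limma adjusted p = 0.780), and the sign turned without BMDC array 2 (-0.03, adjusted p = 0.993). FL-Y lay above both, by 3.52 over the FDC mean on the log2(signal + 14.2) scale, which is 11.4-fold on that scale. That difference was 4.63 without FDC array 1 and 2.41 without FDC array 2. All 4 probe sets of Tgfb2 put the FL-Y array above the 4 FDC and BMDC arrays, by 2.28 to 3.52 over FDC, although 3 of them were too dim to be tested between FDC and BMDC.

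Among the receptors, the type III receptor was the one most unlike between the cell types. Tgfbr3, betaglycan, had 3834.0 units in activated FL-Y, 5367.8 in FL-Y, 11979.7 and 6719.4 in FDC, and 32.9 and 82.8 in BMDC. All FL-Y and FDC arrays lay far above both BMDC arrays, and the FL-Y array lay under both FDC arrays. The means were 9350 ± 3720 units in FDC and 57.9 ± 35.3 units in BMDC (SD, n = 2 each), a log2 difference of 7.05 ± 0.55 (SE; limma adjusted p = 0.00361), the 56th largest rise among 12750 genes. It was 7.99 within the first and 6.12 within the second arrays. The second Tgfbr3 probe set was also called higher but by far less (2.48 ± 0.38, adjusted p = 0.0205), with 716.3 and 854.6 units in FDC against 145.2 and 114.4 in BMDC. The 2 probe sets differed in size and not in direction.

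Tgfbr2, the type II receptor that binds the ligand, had 2549.3 units in activated FL-Y, 3111.4 in FL-Y, 9766.8 and 5346.0 in FDC, and 1816.9 and 1276.0 in BMDC. The groups did not overlap: FDC was highest, FL-Y next and BMDC lowest. FDC lay above BMDC by 2.24 ± 0.48 (SE), or 4.71-fold on that scale, and the adjusted p of 0.0504 (limma) fell just short of the threshold. A second probe set passed it (2.68 ± 0.50, adjusted p = 0.0353), with 2553.0 and 1826.5 units in FDC against 222.9 and 468.3 in BMDC. On that probe set FL-Y had 328.1 units, within the BMDC range, a difference of -2.67 from FDC, against -1.21 on the brighter one. The third, at 36.0 units or less on all 6 arrays, was not tested.

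Tgfbr1, the type I receptor kinase also called ALK5, was carried by all groups on its brightest probe set, with 463.2 units in activated FL-Y, 418.2 in FL-Y, 915.1 and 385.2 in FDC, and 1590.2 and 1002.0 in BMDC. FL-Y lay between the FDC arrays, and both BMDC arrays lay above them, but the difference of FDC from BMDC did not pass the test (-1.07 ± 0.56 (SE), limma adjusted p = 0.333). The other probe sets gave -0.35 and -0.23 with overlapping arrays (adjusted p = 0.797 and 0.842). In FL-Y they disagreed with the first: 41.4 and 37.0 units in FL-Y, against 282.0 and 409.1 units in FDC on one and 76.9 and 123.5 on the other.

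The latent binders were led by Ltbp2, a microfibril protein that, unlike its relatives, is known not to bind latent TGF-beta covalently. It had 5636.5 units in activated FL-Y, 3442.3 in FL-Y, 11027.0 and 12111.8 in FDC, and 33.0 and 84.8 in BMDC. The groups did not overlap, and the FDC arrays were close to each other. FDC averaged 11569 ± 767 units and BMDC 58.9 ± 36.6 units (SD, n = 2 each), a log2 difference of 7.40 ± 0.49 (SE; limma adjusted p = 0.00303), the 38th largest rise among the genes tested. It was 7.87 within the first and 6.94 within the second arrays. The calls of Ltbp2 and Tgfbr3 were kept in all 13 alternative settings, with an adjusted p of at most 0.0129 for Ltbp2 and 0.0147 for Tgfbr3. As given above, 6 of 10 fibroblast and mural markers tested were also higher in FDC and 0 lower, while Lum overlapped (-0.68). The part of such cells in the differences of both genes was not tested.

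Ltbp3, which helps to secrete latent TGF-beta and is known from bone, had 1126.8 units in activated FL-Y, 1548.2 in FL-Y, 2936.0 and 2797.5 in FDC, and 1386.5 and 626.7 in BMDC. Both FDC arrays lay above all others, with FL-Y above both BMDC arrays. The log2 difference of 1.60 ± 0.50 (SE) did not pass the test (limma adjusted p = 0.130), and its other tested probe sets gave 1.56 and 1.66 (adjusted p = 0.127 and 0.166).

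Ltbp4, a binder of elastic tissue that is known to favour TGF-beta 1, had 156.5 units in activated FL-Y, 233.0 in FL-Y, 191.2 and 133.8 in FDC, and 27.6 and 81.2 in BMDC. FL-Y was the brightest array and BMDC the dimmest group. FDC lay above BMDC by 1.47 ± 0.54 (SE), which did not pass the test (limma adjusted p = 0.181).

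Ltbp1, the most studied of the family and a covalent partner of the propeptide, could not be ordered between FDC and BMDC. It had 434.1 units in activated FL-Y, 629.5 in FL-Y, 73.0 and 358.4 in FDC, and 181.8 and 3.0 in BMDC. Arrays of the same label differed more than the groups did: the difference of FDC from BMDC was -1.17 within the first and 4.44 within the second arrays, and 1.63 ± 1.30 (SE) for all 4 (limma adjusted p = 0.526). The FL-Y array lay above all 4. The other 2 probe sets stayed at 34.5 units or less and were not tested.

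**Figure D2:**
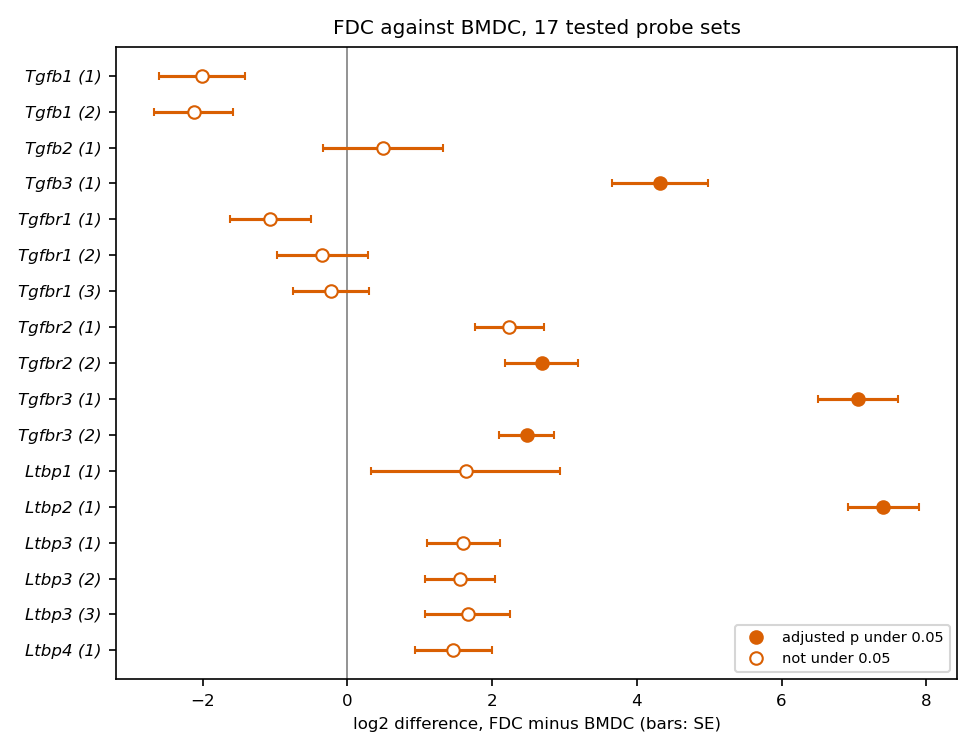
Log2 difference, FDC minus BMDC (2 arrays each), of the 17 tested probe sets of the 10 genes, with bars of 1 SE; filled points passed an adjusted p of 0.05 with limma. The number in brackets ranks a gene's probe sets by mean log2 value; 5 points are filled, all at 2.48 or more, and the probe sets of Tgfb1 and Tgfbr1 lie below 0.

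At the level of probe sets, 17 of the 24 were tested, 5 were called higher and 0 lower in FDC, where 4.84% of all probe sets tested were higher and 4.09% lower, 8.93% in all. The 5 were 2 of Tgfbr3 and 1 each of Tgfb3, Tgfbr2 and Ltbp2. The 7 that were not tested were dim in FDC and BMDC: 3 of Tgfb2, 2 of Ltbp1, and 1 each of Tgfbr2 and Ltbp3.

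Sequence upstream of the gene start was taken from RefSeq (build GRCm38.p6) for 4 genes, chosen because each stands for a pattern above: Tgfb1 was brightest in BMDC, Tgfb2 in FL-Y, and Tgfbr2 and Ltbp2 in FDC. RefSeq windows were at hand for 8 of the 10 genes, not for Tgfb3 and Tgfbr3. Each run is the 250 bases before the start, 5′ to 3′ on the gene's strand, and capitals mark matches, on either strand, to TATAAA (the box bound by TBP), GGGCGG (a GC box), CAGAC (a core SMAD motif), CACGTG (an E box), TGANTCA (an AP-1 motif) or GTCTAGAC (the SMAD palindrome). No motif is contained in another.
Tgfb1 (chr7:25686752-25687001, plus strand): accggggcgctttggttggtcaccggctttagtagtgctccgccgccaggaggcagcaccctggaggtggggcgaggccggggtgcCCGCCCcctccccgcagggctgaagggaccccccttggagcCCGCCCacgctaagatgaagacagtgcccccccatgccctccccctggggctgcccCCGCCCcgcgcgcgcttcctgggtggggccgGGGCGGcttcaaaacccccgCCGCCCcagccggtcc
Tgfb2 (chr1:186705990-186706239, minus strand): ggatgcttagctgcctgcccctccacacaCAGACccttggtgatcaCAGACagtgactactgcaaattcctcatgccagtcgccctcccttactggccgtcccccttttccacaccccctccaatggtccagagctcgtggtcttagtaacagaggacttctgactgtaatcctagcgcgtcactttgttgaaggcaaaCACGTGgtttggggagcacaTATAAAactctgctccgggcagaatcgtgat
Tgfbr2 (chr9:116175364-116175613, minus strand): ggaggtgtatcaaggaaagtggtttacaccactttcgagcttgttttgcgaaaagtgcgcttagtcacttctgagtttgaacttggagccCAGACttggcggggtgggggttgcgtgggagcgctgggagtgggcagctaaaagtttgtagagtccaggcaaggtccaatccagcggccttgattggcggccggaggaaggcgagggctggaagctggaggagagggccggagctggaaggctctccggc
Ltbp2 (chr12:84876492-84876741, minus strand): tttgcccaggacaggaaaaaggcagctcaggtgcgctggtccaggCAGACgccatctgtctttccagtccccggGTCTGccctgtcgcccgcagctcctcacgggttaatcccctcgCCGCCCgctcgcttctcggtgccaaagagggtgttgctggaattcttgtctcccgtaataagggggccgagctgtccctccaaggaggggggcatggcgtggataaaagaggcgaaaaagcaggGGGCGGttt

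These windows differ in make-up. That of Tgfb1 was 75.2% G and C and held 5 GC boxes and no TATAAA, and that of Tgfb2 was 53.6% G and C, with TATAAA whose first base is at position -31 from the start, an E box at -51 and CAGAC at -221 and -204. The Tgfbr2 window (58.4% G and C) held CAGAC at -160 alone. The Ltbp2 window (61.6% G and C) held CAGAC at -205 and -176 and GC boxes at -133 and -9. Of 32841 mouse windows of this length, 12.4% held TATAAA, 32.7% GGGCGG, 42.2% CAGAC, 6.02% CACGTG, 6.75% TGANTCA and 0.167% GTCTAGAC, and the median window was 52.4% G and C. The last 2 motifs were in none of the 4 windows. A match is a description of letters and not a site of binding.

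On the brightest probe sets, FL-Y differed from primary FDC most in Tgfb2, and Tgfb3 and Tgfbr1 lay within the FDC range. The other probe sets of Tgfbr1 put FL-Y below both FDC arrays (-2.67 and -1.13). By the rule used for 1 array (outside both FDC arrays and at least 2 on the log2 scale from their mean), 1 of the 10 genes, Tgfb2, was higher in FL-Y than in FDC and 0 were lower, where 3.31% of 12601 genes were higher and 6.88% lower. Ltbp2 stood nearest to the lower limit (-1.74, or 3.35-fold lower in FL-Y) and Ltbp1 nearest to the upper one (1.84, or 3.57-fold higher). Ltbp1 passed it without FDC array 2 (2.88) and with arrays rescaled to 1 median (2.23). It stood at 0.79 without FDC array 1 and at 0.55 with the mean of its probe sets. Over all probe sets of the 10 genes, not only the brightest, 4 were past the limit above FDC, all of Tgfb2. Below FDC 2 were past it, 1 each of Tgfbr1 and Tgfbr2. At least 1 other probe set of each of Tgfb1 (0.56), Tgfbr2, Ltbp1 and Ltbp3 differed in sign from the brightest. Of the 10 genes 4 lay above the FDC mean and 6 below it, under each of the 3 scalings tried, although rescaling to 1 median put the median of all genes at 0.29 in place of -0.10, and the share of higher among all genes past the limit at 52% in place of 32.5%. Quantile normalization gave 38.7%.

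Against BMDC, 5 of the 10 genes were higher in FL-Y by the same rule and 1, Tgfb1, was lower (-2.88), where 7.51% of 12592 genes were higher and 11.5% lower. The 5 were Tgfbr3 (6.32), Ltbp2 (5.66), Tgfb3 (4.36), Tgfb2 (4.01) and Ltbp1 (3.47), on the log2 scale. These differences use the same BMDC arrays as those of FDC from BMDC and are not independent of them. Ltbp1 was no longer past the limit without BMDC array 2 (1.72) or with the mean of its probe sets (1.29), and stood at 5.23 without BMDC array 1. The second probe sets of Tgfb1 (-1.56) and Tgfbr3 (1.78) lay inside the limit, as did the dimmer ones of Ltbp1 (0.76 and -0.37). A dimmer probe set of Tgfbr1 was past it below BMDC (-3.02), where the brightest was not (-1.56). Ltbp4, at 1.97 just inside the limit, passed it with no offset (2.30), with quantile normalization (2.25), with rescaling to 1 median (2.34) and without BMDC array 2 (2.56). Over the alternatives 5 to 7 of the 10 genes were past the limit, with Tgfb1 the 1 lower gene in each. Rescaling to 1 median put the median of all genes at 0.33 in place of -0.05, and the share of higher at 51.5% in place of 39.5%.

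Activation through the lymphotoxin beta receptor moved 0 of the 10 genes past 1 on the log2 scale, in 1 array against 1, where 1.75% of 12204 genes were higher and 4.89% lower. The largest differences were those of Tgfb3, at -0.88 (307.0 units in activated FL-Y, against 575.3 in FL-Y), and of Ltbp2, at 0.71 (5636.5 against 3442.3 units). Tgfb1 was at 0.37 and Tgfbr1 at 0.14, and the other 6 lay between -0.53 and -0.16. These are values of the brightest probe sets. At least 1 other probe set of each of Tgfb1 (-0.51), Tgfb2, Tgfbr1, Tgfbr2 and Ltbp1 had the other sign. With the mean of a gene's probe sets, Tgfb1 stood at -0.07 and Ltbp1 at 0.20. Another Ltbp3 probe set fell by more than 1, at -1.24 (16.2 units in activated FL-Y, against 57.6 in FL-Y). The signs of Tgfb2 and Tgfbr2 turned, and Ltbp2 reached 1.06, when arrays were rescaled to 1 median. That setting put the median of all genes at 0.28 in place of -0.06, and the share of higher at 62.9% in place of 26.3% (40% with quantile normalization). Relative to the median of all genes, 3 of the 10 lay above and 7 below under each of the 3 scalings.

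**Figure D3:**
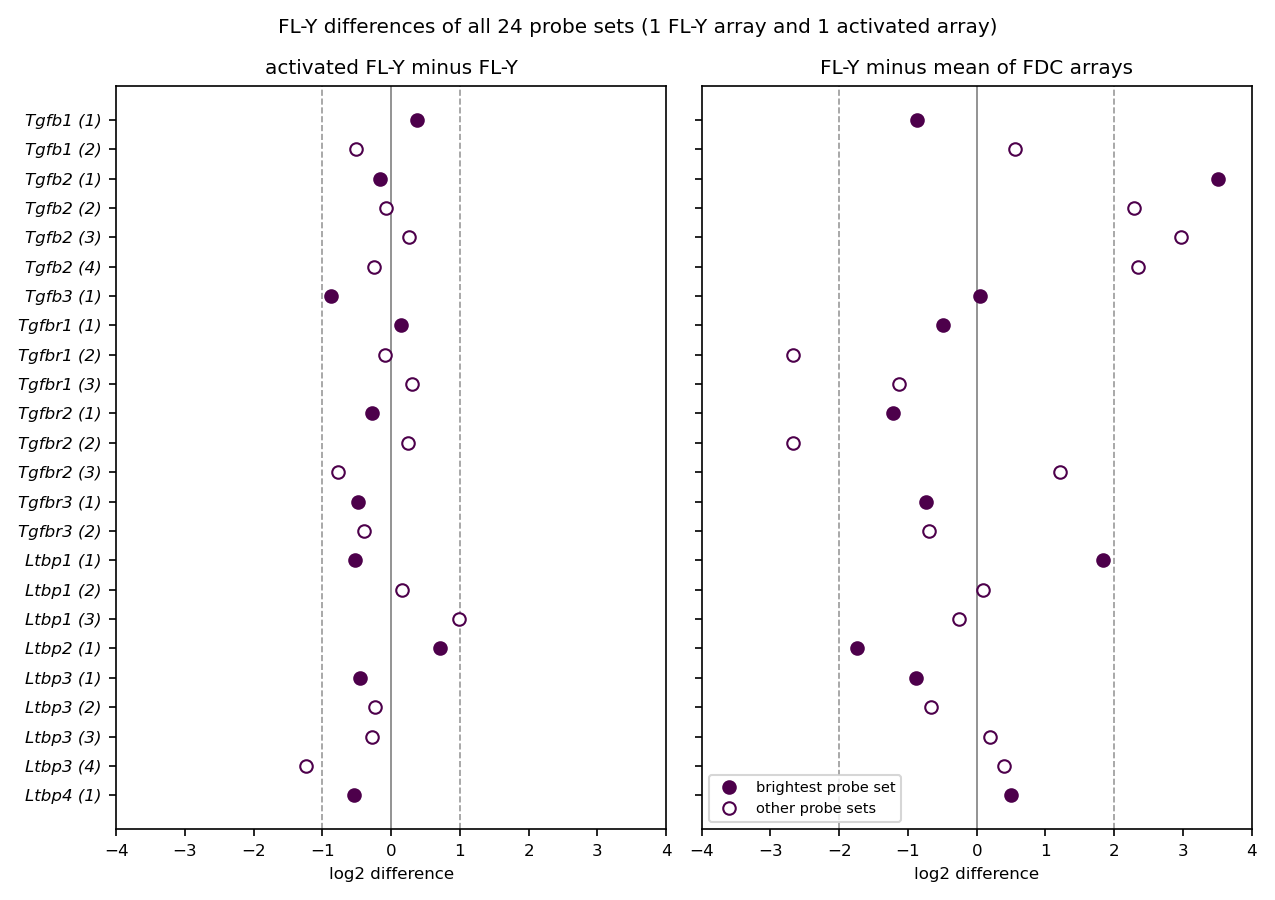
Log2 differences of all 24 probe sets, activated FL-Y minus FL-Y (left; dashed lines at 1 either way) and FL-Y minus the mean of the 2 FDC arrays (right; dashed lines at 2 either way); filled points are each gene's brightest probe set. All 4 probe sets of Tgfb2 lie beyond 2 on the right, and 1 each of Tgfbr1 and Tgfbr2 lies below the lower line at -2.67. On the left every filled point lies within 1 of 0, and an open point of Ltbp3 lies at -1.24.

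The pathway around these genes was read from 5 lists, in which 62 genes were tested, 23 higher and 2 lower in FDC than in BMDC, beside 5.87% higher and 5.4% lower of all genes tested. Of 16 SMADs and their regulators 3 were higher and 0 lower, with a list median of 0.71. Smad3, which carries the signal to the nucleus, had 1074.8 units in FL-Y, 1366.6 and 1615.8 in FDC and 179.1 and 117.2 in BMDC, a difference of FDC from BMDC of 3.23 ± 0.41 (SE; limma adjusted p = 0.0117). The inhibitory Smad7, itself a target of the pathway, was higher by 3.05 (adjusted p = 0.0135) and the ubiquitin ligase Smurf2 by 1.96 (adjusted p = 0.0474). Smad2, the other receptor-activated SMAD, had 1585.7 units in FL-Y, 1211.6 and 1573.4 in FDC, and 1543.6 and 1457.2 in BMDC, with overlapping groups (-0.12, adjusted p = 0.891). It was chosen after its values were seen, for the contrast with Smad3.

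Of 8 related receptors (endoglin and receptors for activins and BMPs) 1 was higher in FDC and 0 lower, a share near the 11.3% called over all genes tested, with a median of 1.81 beside -0.03 for all genes. That gene, the BMP receptor Bmpr1a, had 2826.5 and 1376.4 units in FDC against 16.3 and 56.4 in BMDC (5.42 ± 0.61 (SE), adjusted p = 0.00823 with limma). In FL-Y, Acvrl1, the ALK1 receptor, was past the limit of 2 below FDC, with 190.4 units in FL-Y against 2058.0 and 1260.4 in FDC. It was named because it was the only one of this list to pass, where 6.88% of all genes were past the limit below FDC.

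Genes that process or release latent TGF-beta moved both ways. Of 15 tested 4 were higher in FDC and 1 lower, with a median of 1.08. The gelatinase Mmp2 was higher by 6.29 ± 0.60 (SE), the plasminogen activator Plat by 5.12 ± 0.61, the protease Adamts1 by 4.86 ± 0.74 and Thbs1, thrombospondin, which can unfold the latent complex, by 3.07 (limma adjusted p of 0.00534, 0.0100, 0.0195 and 0.0192). Plat had 6.6 and 16.4 units on the BMDC arrays, whose 20th percentiles were 13.7 and 15.4, so the size of its difference also depends on the offset. Nrros, which holds latent TGF-beta on the surface of myeloid cells, had 126.9 and 79.1 units in FDC against 7776.1 and 6148.3 in BMDC (-5.92 ± 0.42, adjusted p = 0.00317). Mmp2 set FL-Y apart from primary FDC, with 160.7 units in FL-Y against 19841.7 and 8291.5 in FDC. In this list 4 of 15 genes were past the limit below FDC, beside 6.88% of all genes: Mmp2, Mmp9, Itgb3 and Nrros. The FL-Y array, whose 20th percentile was 12.1 units, had 3.9 units of Itgb3, 12.1 of Nrros and 15.4 of Mmp9. The sizes of these 3 differences therefore depend on the offset. The FDC arrays had 103.2 and 529.3 units of Itgb3 and 372.7 and 1955.5 of Mmp9. On activation, Mmp9, another gelatinase, was the 1 gene of 12 past the limit, with 541.3 units in activated FL-Y against 15.4 in FL-Y. As that FL-Y value is near the array's 20th percentile, the size of this difference between 1 array and 1 array depends on the offset. Over all genes, 1.75% were past the limit upward and 4.89% downward. Mmp9 was named for that, as Thbs1 was to complete the count.

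Of 8 matrix genes that hold latent complexes or bind TGF-beta, 5 were higher in FDC and 0 lower, with a median of 4.78. The proteoglycans Dcn (9.67) and Bgn (8.83), both binders of TGF-beta, had the largest differences, followed by the protease Htra1 (5.41), Fbln5 (4.96) and Vasn (4.59), the last named to complete the count. BMDC array 1 had 2.8 units of Dcn, under its 20th percentile, so the size of that difference depends on the offset. Fn1, fibronectin, to which latent binders are first laid down, had 28267.5 and 23941.8 units in FDC against 30731.5 and 20652.8 in BMDC and overlapped (0.05, limma adjusted p = 0.961); it was named after its values were seen. Dcn was lower in FL-Y, at 4233.2 units, than in FDC, at 52260.1 and 47482.1, and stood at 10876.9 units in activated FL-Y, a log2 difference of 1.36 from FL-Y. Fmod, fibromodulin, another small proteoglycan that binds TGF-beta, went past the limit the other way on activation (-1.72), with 424.7 units in activated FL-Y against 1428.8 in FL-Y. They were the 2 genes of 8 in this list past the limit, beside 1.75% higher and 4.89% lower of all genes, and Fmod was named for that.

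Of 19 genes known to respond to TGF-beta, 12 were higher in FDC and 1 lower, with a list median of 4.37 beside -0.03 for all genes tested. The 12 include Ltbp2 itself, and Smad7 and Thbs1, which are also in lists above. Ccn2 (9.60), Col3a1 (9.14), Tagln (8.98) and Col1a1 (8.88) had the largest fitted rises of the list (limma adjusted p between 0.00264 and 0.00311). Ccn2 had 5.9 units on BMDC array 1, under that array's 20th percentile, so its size and its place among the 4 depend on the offset. The fall was that of Tgfbi, a secreted protein named for its induction by TGF-beta, with 45.1 and 119.5 units in FDC against 7223.7 and 5302.1 in BMDC (-6.12, adjusted p = 0.00442). Much of this list is matrix and contractile genes of stromal cells. As given above, 6 of 10 fibroblast and mural markers tested were also higher in FDC. The part of such cells in the count was not tested. Smad7 (3.05) and Pmepa1 (3.42) were among the 12 (limma adjusted p = 0.0135 and 0.0124), while Skil, Junb and Cdkn1a, among others, did not pass. Skil had 2807.6 and 4142.1 units in FDC against 2820.5 and 2447.6 in BMDC (0.37, limma adjusted p = 0.648), and Junb and Cdkn1a were at 0.65 and 0.80 (adjusted p = 0.623 and 0.358). In FL-Y, Tgfbi was past the limit above FDC, at 793.5 units, and Igfbp3 and Cdkn1a were past it below FDC, at 10.3 and 581.2 units. On activation Igfbp3, a carrier of insulin-like growth factors, stood at 69.1 units in activated FL-Y against 10.3 in FL-Y. The FL-Y value was under that array's 20th percentile of 12.1 units, so the size of its FL-Y differences depends on the offset. Tgfbi, Pmepa1, Skil, Junb, Cdkn1a and Igfbp3 were picked after their values were seen.

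**Figure D4:**
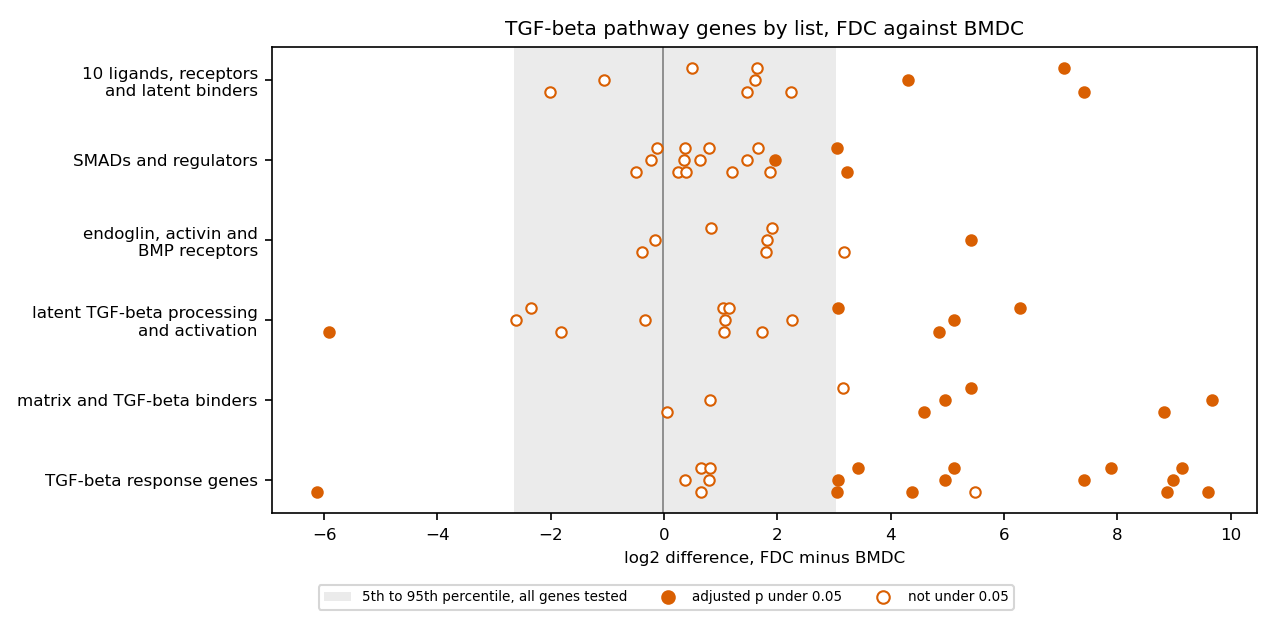
Log2 difference, FDC minus BMDC, of each tested gene of the 10 and of the 5 pathway lists (1 point per gene, spread vertically for legibility); filled points passed an adjusted p of 0.05 with limma, and the grey band spans the 5th to the 95th percentile of all 12750 genes tested. The response genes and the matrix binders reach beyond 8, while 13 of the 16 SMADs and regulators are not filled.

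Likeness of pattern was measured by the Euclidean distance between gene-centred log2 profiles over the 6 arrays, for the 3 of the 10 genes with the widest range. Nearest to Ltbp2 among 12749 genes were Lamb1 (distance 0.96), Gulp1 (1.06) and Steap2 (1.10). Nearest to Tgfbr3 were Gulp1 (0.67), Lamb1 (1.03) and Col8a1 (1.17), so Gulp1 and Lamb1 stood close to both. Nearest to Tgfb3 were B3gnt9 (0.28), P3h3 (0.75) and Ebf1 (0.76). These arrays fall into few groups, so many genes share such profiles.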

How the data were processed

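Biotin-labelled total RNA from 6 samples was measured on 1 array each, per the labels. The deposited table holds intensity values on a linear scale, with the same trimmed mean on every array; which program made them, and how background was handled, is not given in the sources used here. Detection calls were not used, and the number of arrays limits the precision. Genes were named from the platform annotation (34945 probe sets with 1 gene, 932 with several, 9160 with none listed, 64 controls); 0 further columns were present. Analysis used limma 3.58.1 in R 4.3.3 (lmFit, eBayes; 2 residual and 3.35 prior degrees of freedom) on log2(signal + 14.2), the offset being the median 20th percentile. Probe sets were tested if their mean log2 value over the FDC and BMDC arrays exceeded the 40th percentile, a signal of 46.4, and FL-Y genes were filtered likewise over their own arrays. The code was tested on simulated data. Exact permutation with 2 arrays a group reaches p = 0.333 at best and was not used; tests were two-sided. The 10 genes were named in full, with the up to 4 called genes of largest difference per pathway list (the 2 largest differences where none was called); others are marked in the text. The genes and lists were chosen with earlier results of these data known. Of 69 pathway genes listed, 65 were read here, and the others were not analysed here. Alternatives covered the offset, scaling, filter, fit, probe set rule and left-out arrays.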

Additional observations from a re-analysis of the deposited data

How the results depend on the processing

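Each group had 2 arrays or 1, too few to look for single outlying arrays. The count of probe sets called between FDC and BMDC was 2413; it was 1454 with no offset and a floor at the 5th percentile, 1433 with no filter on dim probe sets, and 1312 to 2090 when 1 array was left out; it was 3119 with the offset at the 40th percentile and 3118 with an intensity trend. The count among the 10 genes was 3, and 2 with no offset. It was 5 (4 higher, 1 lower) with the mean of all probe sets of a gene, which called Tgfb1 lower and Tgfbr2 higher. Tgfb2 and Ltbp1 were not tested in that setting. With the replicate number as a block, 2392 probe sets and 4 of the 10 genes were called, Tgfbr2 being added (adjusted p = 0.0419); the differences between array 2 and array 1 correlated at r = 0.199 between the cell types across probe sets, and the labels do not say that a number pairs samples. Tgfbr2 also passed with the larger offset (adjusted p = 0.0239), arrays rescaled to 1 median (0.0491), an intensity trend (0.0157) and the mean of its probe sets (0.0253). The pathway lists held 25 calls, and 19 to 30 over their alternatives. FL-Y genes past the limit against BMDC numbered 6, and 5 to 7 over the alternatives. Those against FDC numbered 1; they were 2 with arrays rescaled to 1 median and 1 to 2 without 1 FDC array. Those past the limit on activation numbered 0, and 1 (Ltbp2) with arrays rescaled to 1 median. The cause of these changes was not tested. Signals near the 20th percentile limit the size of the differences of Tgfb3, Ltbp1 and Tgfb2, and without BMDC array 2 the uncalled Ltbp1 difference stood at -0.12.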
